A study of Rattus norvegicus with 8 samples.

Results

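The matrix metalloproteinases described here are 10 genes, Mmp1, Mmp2, Mmp3, Mmp9, Mmp10, Mmp11, Mmp12, Mmp13, Mmp14 and Mmp19, chosen by gene symbol among the 32883 genes of the count table. Of these 10 genes, 9 had a row. Mmp11 had none under its name and is reported as below the count filter of the table that pairs identifiers with symbols, in which the smallest total over the 8 libraries was 81 reads. Mmp12 had a row but too few reads to be tested, so 8 of the 10 genes entered the test.

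RNA-seq was performed on primary nucleus pulposus (NP) cells, taken from the soft centre of intervertebral discs of adult Sprague Dawley rats and transduced with lentivirus. The control cells (Sirt6-Ctrl, libraries S1 to S4, n = 4) carried a control short hairpin RNA. The knockdown cells (Sirt6-KD, libraries S5 to S8, n = 4) received a mixture of ShSirt6 clones against Sirt6, a sirtuin that removes acyl groups from histones. Both groups were cultured primary cells that had received virus, and Sirt6 transcript was lowered but not lost. Cells of 4 rats were used with a control for each, but which libraries came from the same rat is not given in the labels, so groups were compared unpaired.

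Matrix metalloproteinases are zinc-dependent enzymes that cut extracellular matrix outside the cell or at its surface. They are made as inactive proenzymes, are switched on when the propeptide is removed, and are held back by tissue inhibitors (Timp proteins). Collagenases cut the triple helix of fibrillar collagens, stromelysins cut proteoglycans and activate other proenzymes, gelatinases cut denatured collagen, and membrane-type enzymes act at the cell surface. In the disc, collagenases and stromelysins are known for their part in the breakdown of collagen II and aggrecan, the main matrix components of the NP. Transcript levels, measured here, give neither the amount of enzyme nor its activity.

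Total reads per library ranged from 31994838 to 40124813, and 3 reads corresponded to 0.0727 to 0.0928 CPM (reads scaled to a fixed library size), the unit of all levels below, normalized by TMM. Reads of Sirt6 numbered 1755 to 1964 per control library and 695 to 753 per knockdown library, a log2 fold change of -1.35 (SE 0.14, adjusted p = 0.000713). Txnip, an inhibitor of thioredoxin, was at 22.9 ± 14.0 CPM in Sirt6-Ctrl against 20.7 ± 12.3 CPM in Sirt6-KD (SD, n = 4, adjusted p = 0.850). ERCC spike-ins, synthetic RNAs added to each sample, took 6.27% and 9.80% of the reads in S1 and S2, 3.08% and 2.97% in S3 and S4, and 2.15% to 2.47% in Sirt6-KD. The groups differed in this share (p = 0.0286 in an exact two-sided permutation test, which cannot go lower with 4 libraries against 4). Scaling by the spike-ins moved the median log2 fold change over all genes from -0.02 to 0.94, so changes below are relative to the typical gene. Of 12 listed symbols of NP markers, 6 had a row, with summed levels of 104 to 169 CPM in Sirt6-Ctrl against 78.2 to 101 CPM in Sirt6-KD. Krt8 (log2 fold change -1.32, adjusted p = 0.0441) and Car3 (-2.70, adjusted p = 0.0127) were lower in Sirt6-KD without overlap. The groups overlapped for Cd24, Acan, Foxf1 and Sox9, of which only Sox9 was above 0 (0.48, adjusted p = 0.461). Krt18, Krt19, T, Tbxt, Col2a1 and Shh had no row under those names, so the label could be checked against only part of its defining markers. In bulk samples such as these, fewer cells of a type and less RNA per cell cannot be told apart.

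The members Mmp13, Mmp12, Mmp3, Mmp1 and Mmp10, lie in 1 stretch of rat chromosome 8, together with Mmp1b, Mmp8, Mmp27, Mmp20 and Mmp7, in the gene order of RefSeq on the GRCr8 assembly. The other members, Mmp2, Mmp9, Mmp11, Mmp14 and Mmp19, lie elsewhere. The 100 bases before the annotated start of the 5 clustered members are shown because these genes had the highest Sirt6-KD to Sirt6-Ctrl ratios among the members and because their promoters hold the same pair of motifs, both seen before the windows were chosen. All 5 windows are from RefSeq on GRCr8, on the plus strand, 5′ to 3′. They run over chr8:12782729-12782828 for Mmp13, chr8:12866552-12866651 for Mmp12, chr8:12925181-12925280 for Mmp3, chr8:12943353-12943452 for Mmp1 and chr8:12974607-12974706 for Mmp10. Capitals mark a pair of motifs. The first is TGAGTCA, bound by the AP-1 transcription factors, which lies on the other strand in Mmp13 and therefore reads as TGACTCA there. The second is TATAAA, the box at which transcription is set up in many promoters.
Mmp13: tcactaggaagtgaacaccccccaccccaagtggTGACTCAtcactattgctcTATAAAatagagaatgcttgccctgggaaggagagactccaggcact
Mmp12: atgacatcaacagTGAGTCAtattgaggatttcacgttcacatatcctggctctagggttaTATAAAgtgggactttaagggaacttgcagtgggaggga
Mmp3: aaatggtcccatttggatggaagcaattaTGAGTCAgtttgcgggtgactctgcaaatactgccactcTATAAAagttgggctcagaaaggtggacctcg
Mmp1: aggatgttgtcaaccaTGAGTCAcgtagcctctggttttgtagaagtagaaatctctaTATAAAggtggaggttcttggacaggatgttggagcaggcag
Mmp10: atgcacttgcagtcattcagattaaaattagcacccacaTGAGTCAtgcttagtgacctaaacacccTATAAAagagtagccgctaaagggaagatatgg

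Each of these 5 windows held 1 AP-1 motif and 1 TATA box, with the AP-1 motif farther from the start. The AP-1 motif began 61 bases before the start in Mmp10, 66 in Mmp13, 71 in Mmp3, 84 in Mmp1 and 87 in Mmp12. The TATA box began 32 bases before it in Mmp3, 33 in Mmp10, 39 in Mmp12, 42 in Mmp1 and 47 in Mmp13. Of 33469 rat promoters in the same collection, 1.58% held TGAGTCA on either strand within these 100 bases, 3.86% held TATAAA on the gene strand, and 30 promoters (0.0896%) held both. Mmp11, the sixth member with a promoter in the collection, held neither motif in its window. Among 11 other Mmp genes in the collection, only Mmp7 held both. Promoters of Mmp2, Mmp9, Mmp14 and Mmp19 were not analysed here. A motif match describes these letters only, and binding was not measured.

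Of the 8 members tested, 3 were called higher in Sirt6-KD (Mmp1, Mmp3 and Mmp10), 0 were called lower, and 5 were not called. DESeq2 and limma-voom also called 0 lower, and 0 had a lower level at an unadjusted p below 0.05. A call required an adjusted p below 0.05 in edgeR's quasi-likelihood test and a fold change above 1.5. Among the 13250 genes tested, 8.02% were called higher and 10.7% were called lower. The Sirt6-KD libraries all lay above the Sirt6-Ctrl libraries for the same 3 tested members, against 14.8% of all genes tested, and below them for 0 members, against 15.6%. The median log2 fold change of the 8 tested members was 0.90, against -0.02 over all genes. Mmp1 passed the low-count filter only through its Sirt6-KD reads, so a tested Mmp1 had to differ, and these counts describe the tested members only. Without Mmp1, 2 of 7 tested members were called higher, the same 2 did not overlap, and the median log2 fold change was 0.28. With libraries scaled by spike-ins, 0 members were called, and 5 had an unadjusted p below 0.05. Among the 13250 genes, 4219 were higher and 44 lower at that unadjusted p, since this scaling moved the median of all genes upward.

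**Figure D1:**
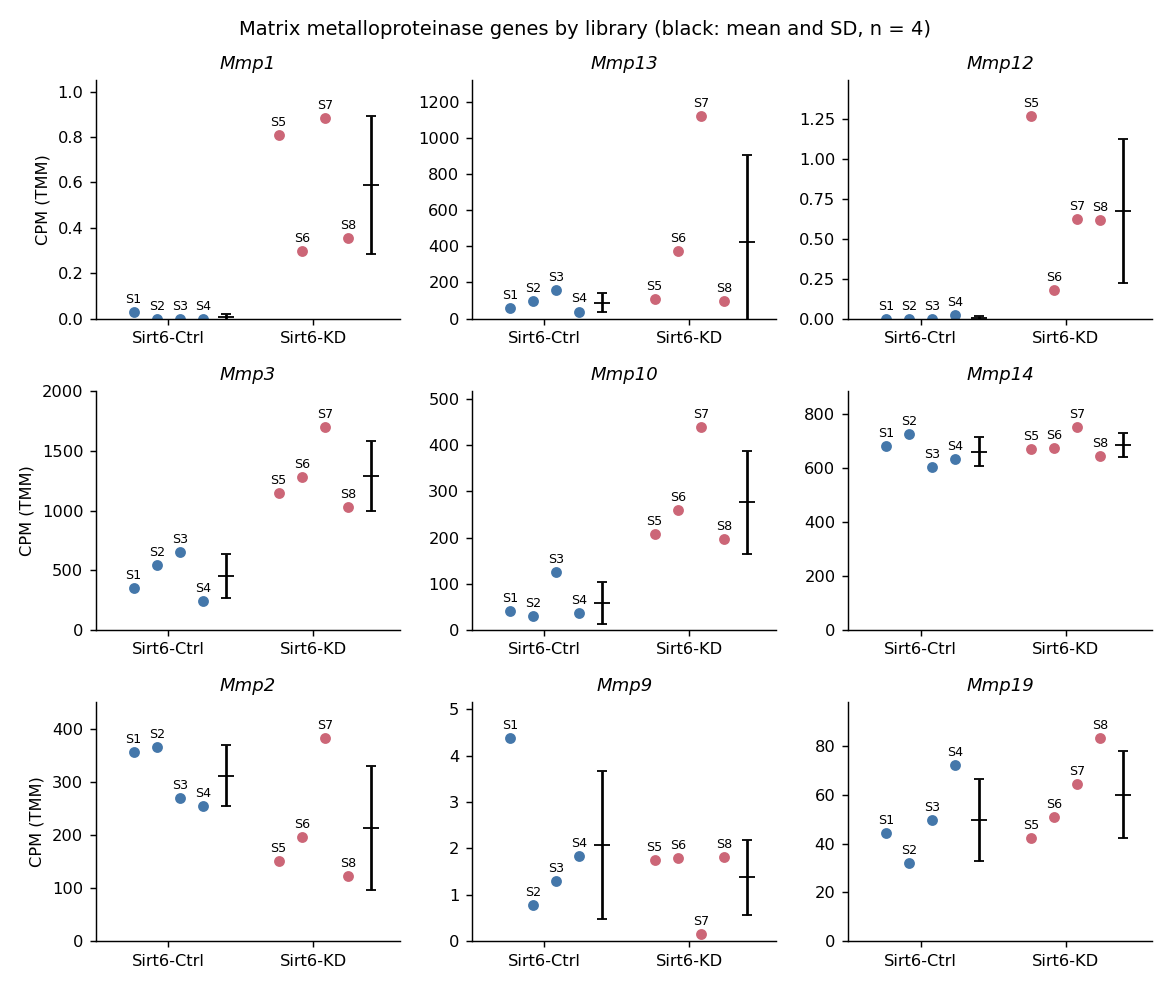
Level of each of the 9 matrix metalloproteinase genes with a row, in TMM-normalized CPM (vertical axis, each panel with its own range), for the 4 Sirt6-Ctrl libraries (blue) and the 4 Sirt6-KD libraries (red), with the mean and SD in black (n = 4); the lower SD bar of Mmp13 in Sirt6-KD would fall below 0 and ends at the axis. The groups are apart for Mmp1, Mmp3, Mmp10 and Mmp12 and overlap for the other 5 genes, and S7 is the highest Sirt6-KD library in 6 of the 9 panels.

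Among the collagenases, Mmp13, which cuts collagen II, was at 59.0, 99.4, 158 and 39.5 CPM in S1 to S4 and at 106, 375, 1120 and 97.0 CPM in S5 to S8. S7 stood far above the other Sirt6-KD libraries, and S5 and S8 lay below S3, so the groups overlapped. The mean was 89.0 ± 52.5 CPM in Sirt6-Ctrl against 424 ± 481 CPM in Sirt6-KD (SD, n = 4), an 11.5-fold range within Sirt6-KD. The log2 fold change was 2.25 (SE 0.75, adjusted p = 0.0550), which did not pass the threshold. Without S7 it was 1.11 (adjusted p = 0.215), whereas without S3 it was 2.68 (adjusted p = 0.0373) and without S8 it was 2.62 (adjusted p = 0.0396). The call of Mmp13 therefore turned on single libraries, and on the count filter, since it was 2.29 (adjusted p = 0.0448) with no filter.

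Mmp1, the interstitial collagenase, had 1, 0, 0 and 0 reads in S1 to S4 and 28, 10, 34 and 12 reads in S5 to S8. Each Sirt6-KD library was above each Sirt6-Ctrl library, at 0.299 to 0.886 CPM against at most 0.0287 CPM. Summed over libraries and scaled for their size, the level in Sirt6-KD was 85.3 times that in Sirt6-Ctrl, with a 95% counting interval of 14.9 to 3410 because the Sirt6-Ctrl sum was 1 read. Because Mmp1 reached both the names table and the test only through its Sirt6-KD reads, its fitted log2 fold change of 5.80 (SE 1.30, adjusted p = 0.0136, and 0.0530 without S7), which also depends on the prior count, is a description of these reads and not a test of a difference. The RefSeq cluster also holds Mmp1b, a close copy of Mmp1 that had no row under its name, so reads of the pair may be divided between them or not counted, and the level of Mmp1 is uncertain.

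The stromelysins Mmp3 and Mmp10 were both called higher. Mmp3, which cuts proteoglycans and activates procollagenases, was at 354, 547, 654 and 243 CPM in S1 to S4 and at 1149, 1283, 1698 and 1032 CPM in S5 to S8. The lowest Sirt6-KD library was above the highest Sirt6-Ctrl library. Its mean rose from 449.5 ± 185 to 1290 ± 290.4 CPM (SD, n = 4), a log2 fold change of 1.52 (SE 0.29, adjusted p = 0.00803). The range within Sirt6-Ctrl was 2.69-fold, close to the 2.87-fold change between the groups, and that within Sirt6-KD was 1.65-fold.

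Mmp10, the second stromelysin with a similar range of substrates, was at 39.9, 30.8, 125 and 35.5 CPM in S1 to S4 and at 208, 260.3, 439 and 197 CPM in S5 to S8. S3 stood above the other Sirt6-Ctrl libraries, and the groups did not overlap. Its mean rose from 57.9 ± 45.2 to 276 ± 112 CPM (SD, n = 4), a log2 fold change of 2.25 (SE 0.46, adjusted p = 0.0100). Mmp3 and Mmp10 stayed called with each of the 8 libraries left out in turn. Without S1 and S2, the libraries with the highest spike-in share, Mmp3 stayed called (1.53, adjusted p = 0.0317) and Mmp10 lost the call (1.79, adjusted p = 0.0524). The 2 members then called higher were Mmp3 and Mmp1, whose call is not a test of a difference. Neither Mmp3 nor Mmp10 was called when the test asked for a change above 1.5-fold instead of above 0 (adjusted p = 0.0603 for Mmp3 and 0.0514 for Mmp10). Levels of Mmp11, stromelysin-3, were not analysed here.

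Mmp12, the metalloelastase best known from macrophages, had 0, 0, 0 and 1 reads in S1 to S4 and 44, 6, 24 and 21 reads in S5 to S8. All Sirt6-KD libraries were above all Sirt6-Ctrl libraries, the lowest of them, S6, with only 6 reads. Mmp12 too has a name in the table, which lists totals of 81 reads or more, only through its Sirt6-KD reads, so this separation is given without a test. The scaled sum in Sirt6-KD was 96.5 times that in Sirt6-Ctrl, with a 95% counting interval of 16.9 to 3850. Mmp12 was not among the tested genes, and with no filter on low counts its fitted log2 fold change was 6.09. Of 9 macrophage markers, only Cd68, Csf1r and Cd14 had a row, and their summed level was 11.9 to 29.7 CPM in Sirt6-Ctrl against 15.0 to 23.8 CPM in Sirt6-KD. Most of this sum was Cd14, whereas Cd68 was at 1.84 ± 0.749 CPM in Sirt6-Ctrl against 3.51 ± 1.13 CPM in Sirt6-KD (SD, n = 4, log2 fold change 0.93, adjusted p = 0.200). Ptprc, Adgre1, Itgam, Lyz2, Aif1 and Tyrobp had no row under those names. The part of macrophages in the Mmp12 reads was not tested.

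The gelatinases were not called. Mmp2, gelatinase A, was at 358, 366, 271 and 255 CPM in S1 to S4 and at 151, 197, 383 and 123 CPM in S5 to S8. Of the Sirt6-KD libraries 3 lay below all of Sirt6-Ctrl, and S7 lay above all of it. The means were 312 ± 57.7 and 214 ± 117 CPM (SD, n = 4), with a log2 fold change of -0.55 (SE 0.32, adjusted p = 0.236). Without S7 the value was -0.99 and Mmp2 was called lower (adjusted p = 0.0270). With spike-in scaling it was 0.54 (adjusted p = 0.407), which is -0.40 relative to the median of all genes under that scaling.

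Mmp9, gelatinase B, which osteoclasts and neutrophils make in large amounts, had 152, 25, 44 and 76 reads in S1 to S4 and 60, 60, 6 and 61 reads in S5 to S8. S7 was the lowest of all libraries for Mmp9, at 0.156 CPM against 1.74 to 1.81 CPM in the other Sirt6-KD libraries, and S1 was the highest, at 4.37 CPM. The means were 2.07 ± 1.59 and 1.37 ± 0.811 CPM (SD, n = 4), and the groups overlapped. The log2 fold change of -0.59 (SE 0.81, adjusted p = 0.642) turned to 0.09 without S1. With spike-in scaling it was 0.42, which is -0.52 relative to the median of all genes under that scaling. Mmp9 was thus lowest in the library in which Mmp2, Mmp3, Mmp10 and Mmp13 were highest. Of 5 osteoclast markers only Acp5 had a row, at 62.2 ± 15.6 CPM in Sirt6-Ctrl against 84.1 ± 15.3 CPM in Sirt6-KD.

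Mmp14, the membrane-type enzyme that activates pro-Mmp2 in a complex with Timp2, was the steadiest member. It was at 681, 727, 606 and 634 CPM in S1 to S4 and at 671, 676, 752 and 647 CPM in S5 to S8. The highest library was 1.20 times the lowest within Sirt6-Ctrl and 1.16 times within Sirt6-KD, and the groups overlapped. The means were 662 ± 53.5 and 687 ± 45.5 CPM (SD, n = 4), with a log2 fold change of 0.05 (SE 0.12, adjusted p = 0.794).

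Mmp19, which cuts basement membrane proteins and aggrecan, was at 44.2, 32.1, 49.8 and 72.5 CPM in S1 to S4 and at 42.2, 50.9, 64.5 and 83.3 CPM in S5 to S8. S4 and S8 were the highest libraries of their groups, which overlapped over most of their range. The means were 49.7 ± 16.9 and 60.2 ± 17.9 CPM (SD, n = 4), with a log2 fold change of 0.28 (SE 0.27, adjusted p = 0.493). Without S1 and S2 the value was -0.01.

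Of the 9 members with a row, 5 shared an order among the Sirt6-KD libraries. Mmp2, Mmp3, Mmp10, Mmp13 and Mmp14 were highest in S7, followed by S6, S5 and S8, an order seen in 6.13% of all genes tested. Mmp1, Mmp9, Mmp12 and Mmp19 each had another order. S7 was the highest Sirt6-KD library for 6 of the 9 members with a row, against 26.1% of all genes tested. Among the Sirt6-Ctrl libraries, Mmp3 and Mmp13 shared the order S3, S2, S1, S4, found in 3.12% of genes. These orders come from the same libraries and are a description, without a test.

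S4 and S8, the lowest libraries of their groups for both Mmp3 and Mmp13, were the highest for the summed smooth muscle or pericyte markers. The sum of the 5 of 6 such markers with a row was 352, 645, 747 and 2620 CPM in S1 to S4 and 1120, 1014, 873 and 2154 CPM in S5 to S8. Acta2, Tagln, Myh11 and Cnn1 were each highest in S4 and S8, whereas Des was lowest there, at 96.6 CPM in S4 and 116 CPM in S8. The summed fibroblast or annulus fibrosus markers, 5 of 6 with a row, were also highest in these libraries, at 25961 CPM in S4 and 17876 CPM in S8, against 13675 to 16827 CPM and 8339 to 10290 CPM in the others of each group. Nearly all of that sum was Col1a1, at 25213 CPM in S4 and 17465 CPM in S8, and Pdgfra differed, being highest in S3 (78.7 CPM) and S7 (166 CPM) and lowest of Sirt6-KD in S8 (49.9 CPM). The part of such cells in the levels of Mmp3 and Mmp13 was not tested. Only 1 of 6 endothelial markers had a row, at most 0.592 CPM.

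Together the 9 members took 0.158%, 0.168%, 0.204% and 0.136% of all gene reads in S1 to S4 and 0.244%, 0.302%, 0.478% and 0.227% in S5 to S8. All Sirt6-KD libraries held a larger share, and S7 held the largest. Mmp3 made up 19.0% to 35.1% of the member reads in Sirt6-Ctrl and 38.1% to 49.3% in Sirt6-KD. These are shares of reads and depend on transcript length.

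**Figure D2:**
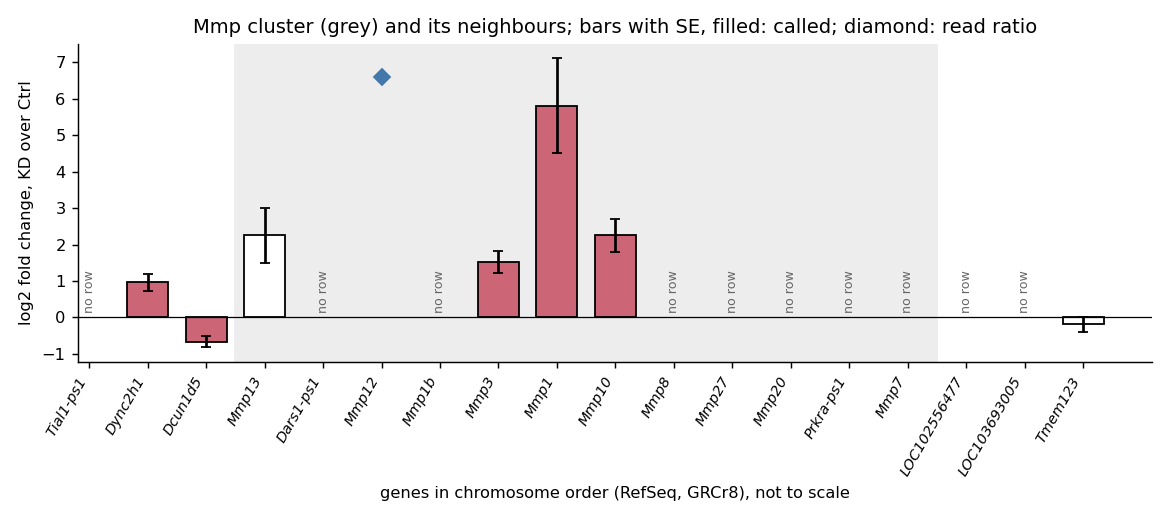
Log2 fold change, Sirt6-KD relative to Sirt6-Ctrl (vertical axis, bars with SE, filled where called) for the Mmp cluster of chromosome 8 (grey) and the 3 nearest genes on each side, in chromosome order and not to scale; the diamond is the log2 ratio of summed reads of Mmp12. All 5 members with a row lie above 0 (Mmp13 not called), whereas Dync2h1 was called higher, Dcun1d5 was called lower and Tmem123 was not called.

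Within the chromosome 8 cluster, the same 5 members were the only Mmp genes with a row. The neighbours on one side moved in opposite directions. Dync2h1, a motor protein of cilia, rose (log2 fold change 0.96, SE 0.22, adjusted p = 0.0156), and Dcun1d5, which lies next to Mmp13 and takes part in protein neddylation, fell (-0.66, SE 0.16, adjusted p = 0.0182). On the other side, Tmem123 was at -0.19 (SE 0.20, adjusted p = 0.549). The remaining neighbours and the pseudogenes within the cluster had no row under their names.

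Of 12 other matrix metalloproteinases, 5 had a row, with a median log2 fold change of -0.39 against -0.02 over all genes. Of these 5, 0 were called, against 8.02% called higher and 10.7% called lower over all genes tested. So few genes do not set this list apart from that share. The count was also 0 at an unadjusted p below 0.05 and with DESeq2 and limma-voom. The membrane-type genes Mmp24 (-0.43, adjusted p = 0.251), Mmp16 (0.02, adjusted p = 0.968), Mmp15 (-0.39, adjusted p = 0.800) and Mmp17 (0.17, adjusted p = 0.919) and the type II membrane protein Mmp23 (-0.45, adjusted p = 0.572) all had overlapping groups. With spike-in scaling Mmp15, Mmp23 and Mmp24 were above 0 but below the median of all genes, at -0.515, -0.755 and -0.373 relative to it. Some signs turned when single libraries were left out. Mmp15 was above 0 without S1 and Mmp23 without S4, and Mmp16 was below 0 without S1, S2 or S8 and Mmp17 without S2 or S7. S2 held 1 read of Mmp15 and 1 read of Mmp17, against 116 to 194 and 29 to 101 reads in the other Sirt6-Ctrl libraries. Mmp7, Mmp8, Mmp20, Mmp21, Mmp25, Mmp27 and Mmp28 had no row under their names.

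**Figure D3:**
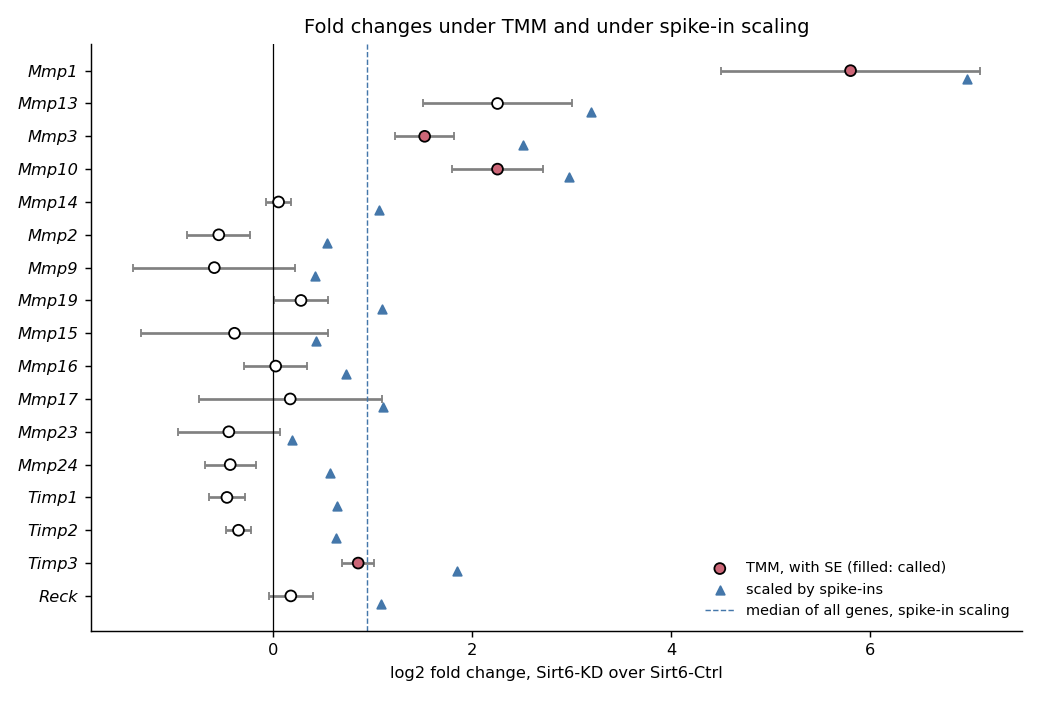
Log2 fold change, Sirt6-KD relative to Sirt6-Ctrl (horizontal axis) of 8 tested members, 5 other matrix metalloproteinases and 4 inhibitors, by TMM with SE (circles, filled where called) and with libraries scaled by spike-ins (triangles); the dashed line is the median of all genes under spike-in scaling, 0.94. Mmp1, Mmp3, Mmp10 and Timp3 are called by TMM, and Mmp13 lies as far right as Mmp10 with a wider error.

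Among 7 listed inhibitors, 5 were tested, 1 rose and 0 fell, against 8.02% called higher and 10.7% called lower over all genes tested. Timp3, the inhibitor that is bound to matrix, was at 40.6 to 62.9 CPM in Sirt6-Ctrl against 86.4 to 113 CPM in Sirt6-KD, without overlap. Its mean rose from 55.0 ± 10.3 to 99.3 ± 11.3 CPM (SD, n = 4), a log2 fold change of 0.85 (SE 0.16, adjusted p = 0.00788). Timp2, which also takes part in pro-Mmp2 activation, was at 1036 to 1241 CPM in Sirt6-Ctrl against 806 to 953 CPM in Sirt6-KD. Its groups did not overlap, but the log2 fold change of -0.35 (SE 0.13, adjusted p = 0.0758) did not pass the threshold. With spike-in scaling it was 0.63, or -0.31 relative to the median of all genes. Timp1, the secreted inhibitor of most metalloproteinases, was at 142 to 269.6 CPM and 131 to 156 CPM, with a log2 fold change of -0.47 (SE 0.18, adjusted p = 0.0919). With spike-in scaling the value of Timp1 was 0.64, or -0.30 relative to the median of all genes. Without S3 it was called lower (-0.59, adjusted p = 0.0199). Reck, a membrane-anchored inhibitor, was at 0.18 (SE 0.22, adjusted p = 0.604). Timp4 and A2m had no row under their names.

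Since the members are held back by Timp proteins, 6 ratios of reads within a library, which do not depend on scaling, were compared. They were chosen after the levels had been seen, and the reads of Mmp3 and Mmp10 in them are those tested above. All 6 were set against Timp1 (log2 fold change -0.47) or Timp2 (-0.35). Timp3, the only inhibitor called higher (0.85), was in none of them. The ratios therefore do not describe the balance of proteases with the inhibitors as a whole. Mmp3 reads per Timp1 read were 1.90, 2.03, 4.61 and 1.33 in S1 to S4 and 7.97, 9.78, 12.7 and 6.60 in S5 to S8. Mmp10 reads per Timp1 read were 0.214, 0.114, 0.883 and 0.194 in S1 to S4 and 1.44, 1.98, 3.28 and 1.26 in S5 to S8. Neither pair of groups overlapped. Their means were 3.75 and 5.67 times higher in Sirt6-KD (exact two-sided permutation tests, p = 0.0286 each, adjusted over the 6 ratios p = 0.0571). Neither passed 0.05 after adjustment, but 0.0286 is the smallest p that 4 libraries against 4 can give. An adjusted p below 0.0571 would have needed more of the 6 ratios to separate the groups.

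For Mmp14, which was not called by itself, the ratio to Timp2 also separated the groups. Timp2 alone already did so (log2 fold change -0.35), whereas Mmp14 was at 0.05. The separation of the ratio is therefore not independent of the Timp2 levels given above. Mmp14 reads per Timp2 read were 0.627, 0.586, 0.585 and 0.527 in S1 to S4 and 0.741, 0.838, 0.789 and 0.706 in S5 to S8. The ratio was 1.32 times higher in Sirt6-KD without overlap (exact two-sided permutation test, p = 0.0286, adjusted p = 0.0571). Mmp13 per Timp1 was 0.216 to 1.11 and 0.620 to 8.36 (exact permutation p = 0.0857, adjusted p = 0.129). Mmp2 per Timp2 (adjusted p = 0.514) and Mmp9 per Timp1 (adjusted p = 0.714 by the same exact permutation test) also overlapped between the groups.

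**Figure D4:**
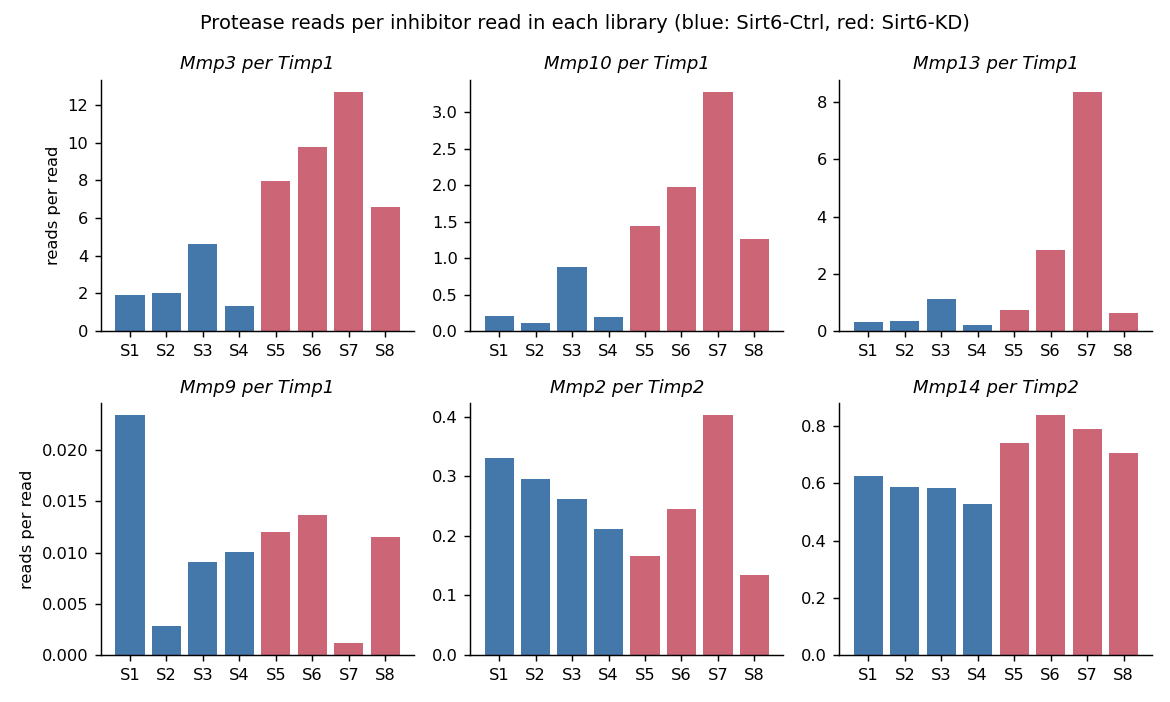
Reads of a metalloproteinase per read of an inhibitor (vertical axis, bars from 0, each panel with its own range) in each Sirt6-Ctrl (blue) and Sirt6-KD (red) library. The bars of S5 to S8 all stand above those of S1 to S4 for Mmp3 and Mmp10 per Timp1 and for Mmp14 per Timp2, and overlap in the other 3 panels.

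Of 10 genes that activate proenzymes, 9 were tested, 3 rose and 0 fell. The tested genes of this list had a median log2 fold change of 0.72, against -0.02 for all genes. Calls covered 8.02% (higher) and 10.7% (lower) of all genes tested. The tissue plasminogen activator Plat rose from 68.5 ± 12.9 to 113 ± 27.0 CPM (0.72, adjusted p = 0.0237), and Plaur, the receptor of urokinase, rose from 15.3 ± 1.88 to 31.7 ± 2.63 CPM (1.05, adjusted p = 0.00416; SD, n = 4). Pcsk5, a proprotein convertase, rose from 22.1 ± 4.06 to 41.4 ± 3.78 CPM (0.91, adjusted p = 0.00795). Plat, like most members, was highest in S7 within Sirt6-KD, and without S7 its adjusted p was 0.0732. It also lost its call without S1 (adjusted p = 0.0685) or S6 (adjusted p = 0.0597). DESeq2 called 4 genes of this list higher and limma-voom 5, and each called 1 lower. Spike-in scaling and glmTreat called 0 in either direction. Plg had no row under its name.

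Of 16 transcription factors known to act on Mmp promoters, 7 rose and 2 fell, with a median log2 fold change of 0.68. Among all genes tested, 8.02% were called higher and 10.7% lower. The lists were chosen with earlier results of these data known, so these counts are a description. The AP-1 subunits, which bind the motif marked in the 5 promoters, moved in both directions. Fosl1 rose from 49.9 ± 15.8 to 116 ± 14.9 CPM (1.21, adjusted p = 0.00604), Fosl2 rose by 1.09 (adjusted p = 0.00402) and Fosb by 1.65 (adjusted p = 0.0101). Jun fell from 251 ± 47.2 to 105 ± 5.01 CPM (-1.25, adjusted p = 0.00143), and Jund fell by 1.31 on the log2 scale (adjusted p = 0.00483). Outside AP-1, Ets1 (0.91, adjusted p = 0.0125), Etv4 (0.93, adjusted p = 0.0113), Runx2 (0.83, adjusted p = 0.0208) and Nfkb1 (0.75, adjusted p = 0.0205) rose. Runx2 and Nfkb1 each lost the call without S1, S5, S6 or S7, with adjusted p up to 0.0686 and 0.0696.

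Of 12 genes of cytokine input, 9 were tested, 4 rose and 0 fell, with a median log2 fold change of 1.38. The shares over all genes tested were 8.02% called higher and 10.7% called lower. Lif, a cytokine of the interleukin-6 family, rose from 31.3 ± 12.1 to 126 ± 10.1 CPM (2.01, adjusted p = 0.00217). The receptors Osmr (1.66, adjusted p = 0.00645), Il6st (1.38, adjusted p = 0.0209) and Il1r1 (1.65, adjusted p = 0.0277) rose as well. Il1r1 lost its call without S2, S5, S6, S7 or S8 (adjusted p up to 0.0723), and Il6st without S1, S5, S6 or S7 (up to 0.0684). Il1b, Tnf and Osm had no row under their names.

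Of 17 matrix substrates, 16 were tested, 1 rose and 4 fell, with a median log2 fold change of -0.40. All genes tested gave 8.02% called higher and 10.7% called lower. The proteoglycan Vcan rose from 80.4 ± 43.2 to 249 ± 61.1 CPM (1.63, adjusted p = 0.0169), and without S7 its adjusted p was 0.0533. Fmod (-4.48, adjusted p = 1.74e-05) and Dcn (-1.71, adjusted p = 0.00421), small proteoglycans that bind collagen fibrils, fell, as did Comp (-3.01, adjusted p = 0.00298) and the fibrillar collagen gene Col3a1 (-1.38, adjusted p = 0.00812). Acan, the gene of aggrecan, was at 21.1 ± 23.5 and 13.8 ± 4.08 CPM (SD, n = 4, adjusted p = 0.520). Col2a1 had no row under its name. With spike-in scaling, 0 of the genes in these lists were called higher and 1 was called lower.

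**Figure D5:**
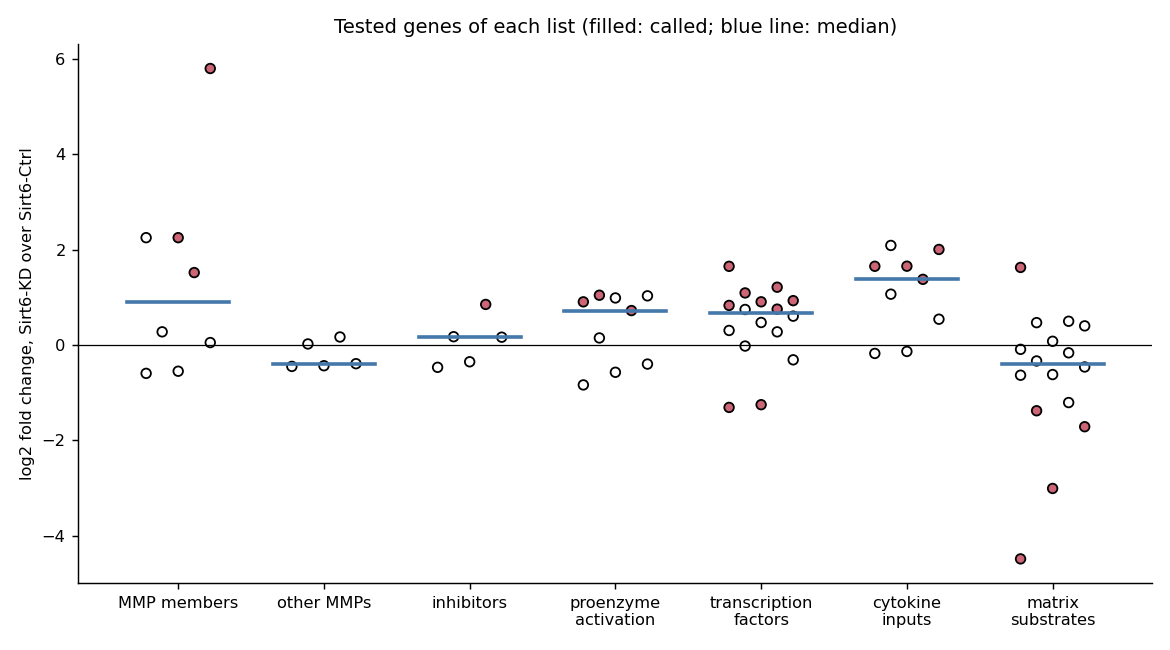
Log2 fold change, Sirt6-KD relative to Sirt6-Ctrl (vertical axis) of each tested gene in the matrix metalloproteinase set and 6 related lists (points, filled where called, with the list median as a blue line). Called genes lie above 0 among the members, inhibitors, proenzyme activation and cytokine inputs, on both sides among transcription factors and substrates, and there are 0 among the other matrix metalloproteinases.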

How the data were processed

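RNA of rat NP cells was sequenced by Azenta, and per the labels the libraries came from total RNA. The submitters' processing notes name Trimmomatic 0.36, STAR 2.5.2b, Subread 1.5.2, featureCounts and DESeq2, with the genome build Rnor_6.0. Strandedness was not given in the sources used here. The authors deposited raw counts of reads per Ensembl gene and spike-in, without normalization, in 32975 rows. Their second table holds 13612 rows with their own fold changes, p-values and size-factor-normalized signal, of which only the deposited gene symbols were used here, and 72 genes tested had no symbol. In that table the row totals were 81 or more reads, and those outside it were at most 80.

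Counts were filtered with filterByExpr of edgeR 4.0.16 (R 4.3.3), which left 13313 rows (63 of 92 spike-ins among them), normalized by TMM, and tested in 1 unpaired fit of 4 Sirt6-KD against 4 Sirt6-Ctrl libraries by the two-sided quasi-likelihood test (glmQLFit, glmQLFTest), with p-values adjusted by Benjamini-Hochberg across all rows. The SE is the log2 fold change divided by the square root of the F statistic. A call needed both an adjusted p under 0.05 and a change over 1.5-fold. Single values were compared by exact permutation tests (scipy 1.17.1). The p-values measure the spread between these libraries, described as independent experiments. Intervals and floors of 3 reads cover counting error only.

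Members and lists were chosen with earlier results of these data known. The genes named are all members, Sirt6, Txnip, every other Mmp gene, the Timp genes and Reck, each called gene of 6 lists, and the cluster's neighbours. Acan and some cell type markers were named in addition. Cell type markers were summed per library. Promoters and gene order came from RefSeq on GRCr8, matched by symbol (6 of 10 members had a promoter). The alternatives were other scaling (DESeq2 size factors, upper quartile, spike-ins), spike-in rows removed, other filters, DESeq2 1.42.0, limma-voom (limma 3.58.1), glmTreat, no fold threshold, and libraries left out. The scripts were tested on simulated data.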

Additional observations from a re-analysis of the deposited data

Results flagged for a closer look

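In each group of 4 libraries, the gap between the highest or lowest library and its nearest neighbour was divided by the range of the group. A share above Dixon's 95% critical value was taken as a library standing apart, which chance gives in about 1 in 20 groups. Of 80 groups (40 genes), 11 exceeded it, 4 of them for members, and about 4 are expected by chance.

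Among the members, S3 was far above the other Sirt6-Ctrl libraries for Mmp10 (share 0.904), and S7 was far below the other Sirt6-KD libraries for Mmp9 (0.958). For Mmp1 and Mmp12 the share was 1 in Sirt6-Ctrl, in S1 and S4, where a single read stood against 0 in the others.

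S7 also stood apart within Sirt6-KD as the highest library for Jun (0.833) and Lif (0.908) and as the lowest for Fmod (0.965). S8 was the highest Sirt6-KD library for Reck (0.853) and Col3a1 (0.961), and S1 was the highest Sirt6-Ctrl library for Jun (0.865) and Comp (0.927).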

How the results depend on the processing

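Across 19 alternatives, Mmp14 was called in none. No paired analysis was possible because neither the labels nor the count columns say which libraries came from the same of the 4 rats, although each knockdown had a control. With spike-in scaling 0 members were called higher, as with glmTreat, and 5 with no filter on low counts. Those 5 include Mmp1 and Mmp12, whose calls are not a test of a difference, as described above. Over all genes, calls were 20 higher and 4 lower with spike-ins, 92 and 185 with glmTreat, and 709 lower without S1 and S2. In the lists, 0 rose and 1 fell with spike-ins, and 2 rose with glmTreat. With spike-ins the log2 fold changes were 6.98 for Mmp1, 2.51 for Mmp3, 2.97 for Mmp10 and -0.36 for Sirt6, none of them called. Signs turned for Mmp2 (0.54), Mmp9 (0.42), Mmp15 (0.43), Mmp23 (0.19), Mmp24 (0.57), Timp1 (0.64) and Timp2 (0.63). All of these values lay below the median of all genes under that scaling, 0.94, so relative to the typical gene their direction was kept. With glmTreat, which tests for a change above 1.5-fold, Mmp1 (5.80, adjusted p = 0.0527), Mmp3 (1.52) and Mmp10 (2.25) lost the call. This test is stricter, but it still called 92 genes higher and 185 lower, so its form alone does not account for the loss. Without S1 and S2, Mmp10 (1.79) and Mmp12 (5.38) missed the threshold, Mmp3 (1.53) stayed called, and Mmp19 (-0.011) and Mmp16 (-0.45) turned. Mmp13 was called with no filter (2.29), and limma-voom gave 0.58 for Mmp15. The cause of these changes was not tested.

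With single libraries left out, 2 (without S7) to 5 (without S3) members were called higher and 0 to 1 lower (Mmp2, without S7). The 2 were Mmp3 and Mmp10, and the 5 were these with Mmp1, Mmp12 and Mmp13. Mmp1 and Mmp12 enter such counts only through their Sirt6-KD reads, so their calls are not a test of a difference. All genes gave 445 (without S6) to 1699 (without S3) higher and 700 (without S6) to 1913 lower, and the lists 10 (without S7) to 19 higher. The log2 fold change ran from 5.46 to 7.40 for Mmp1, -0.99 to -0.32 for Mmp2, -0.85 to 0.091 for Mmp9, 1.11 to 2.68 for Mmp13, -0.79 to 0.11 for Mmp15, -0.18 to 0.27 for Mmp16, -0.22 to 0.91 for Mmp17, -0.68 to 0.079 for Mmp23 and -0.026 to 0.32 for Reck. For Mmp1 and Mmp12, a Sirt6-Ctrl total of 1 read limits the size of the ratio to its counting interval.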
